A study of Homo sapiens with 4 samples.

Results

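The chromatin around 6 genes of growth factor signalling was examined: the receptor tyrosine kinase genes AXL, MET, EGFR and IGF1R, the ligand gene TGFA and the binding protein gene IGFBP3. Every peak that overlapped the RefSeq span of one of these genes, or the 50 kb on either side of it, was taken. Peaks that overlapped between libraries were joined into regions, which gave 103 regions at the 6 loci of 53572 in the whole data set. The 103 regions came from 88 and 147 of the deposited summits in DMSO replicates 1 and 2 and from 44 and 72 in ACSS2i replicates 1 and 2. The data are ATAC-seq peak lists, in which the transposase Tn5 marks open DNA, from 786-O cells. This line was derived from a human clear cell renal cell carcinoma and lacks working VHL. Cells in serum-containing medium received the vehicle DMSO at a dilution of 1:2000, or 5 µM of the compound that the labels call ACSS2i, and both groups were collected after 24 h. There were 2 libraries in each group, all from this one line, and the question was which accessible regions differ after the compound.

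Receptor tyrosine kinases sit in the cell membrane and pass growth signals inwards when a ligand joins them. AXL binds GAS6, MET binds hepatocyte growth factor, EGFR binds TGF-α and related ligands, and IGF1R binds the insulin-like growth factors, which IGFBP3 carries and holds back. In kidney carcinoma cells without VHL, HIF-2α is stable, and TGFA, IGFBP3, AXL and MET are among the genes linked to hypoxia signalling. TGF-α made by such cells can act on their own EGFR. An ATAC-seq peak at a gene shows open DNA there and does not measure its transcript.

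All values below rest on peak lists of unequal length. The lists held 34696 and 50294 peaks in DMSO and 16400 and 22044 in ACSS2i, and the genome background solved from the deposited fold and p columns came to 2.06 and 1.75 fragments in DMSO, against 2.32 and 3.16 in ACSS2i. The part that list length and background play in the results at the 6 loci was not tested beyond the lists of equal length described further on. Of 10 genes fixed as markers of a renal tumour epithelial line, 7, 7, 4 and 7 had a peak within 1000 bp of a gene end in the 4 libraries, in the order DMSO replicates 1 and 2, ACSS2i replicates 1 and 2. KRT8, KRT18 and VIM were among those marked in all 4, while CA9, EPCAM and PAX2 had no such peak in any. Of 6 immune markers only 1 was marked, in DMSO replicate 2, and none of 4 endothelial markers was. Of 4 fibroblast and pericyte markers, COL1A1 and RGS5 were marked in all 4 libraries and DCN and LUM in none, and 4 nerve and muscle markers had 2, 2, 0 and 1.

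The DNA before the annotated starts shows what kind of promoter lies at or near the peaks. The 250 bases before 8 starts follow, 5′ to 3′ on the strand of the gene, taken from RefSeq for GRCh38.p14. They are shown because the starts differ in whether a peak covered them. AXL and EGFR are given with both of their listed starts, and TGFA with start 1 of its 2. Capitals mark matches on either strand to ACGTG or GCGTG (the core of the hypoxia response element), TGANTCA (the AP-1 site), GGGCGG (the GC box) and GGAATG (the TEAD site).
AXL start 1, chr19:41218973-41219222, plus strand: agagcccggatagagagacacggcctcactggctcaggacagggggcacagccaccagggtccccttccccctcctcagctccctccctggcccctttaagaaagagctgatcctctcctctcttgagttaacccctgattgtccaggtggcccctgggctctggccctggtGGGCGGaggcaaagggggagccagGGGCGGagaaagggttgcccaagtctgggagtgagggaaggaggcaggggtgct
AXL start 2, chr19:41226505-41226754, plus strand: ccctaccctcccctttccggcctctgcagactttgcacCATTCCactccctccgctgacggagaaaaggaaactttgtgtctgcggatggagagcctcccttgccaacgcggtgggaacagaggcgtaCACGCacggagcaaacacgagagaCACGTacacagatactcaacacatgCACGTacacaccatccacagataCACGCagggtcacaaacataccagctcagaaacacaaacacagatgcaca
MET, chr7:116671946-116672195, plus strand: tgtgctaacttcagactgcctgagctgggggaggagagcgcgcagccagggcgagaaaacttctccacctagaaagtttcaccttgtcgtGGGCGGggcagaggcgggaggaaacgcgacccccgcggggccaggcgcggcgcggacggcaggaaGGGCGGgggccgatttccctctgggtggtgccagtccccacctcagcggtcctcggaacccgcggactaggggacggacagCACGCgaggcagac
EGFR start 1, chr7:55018767-55019016, plus strand: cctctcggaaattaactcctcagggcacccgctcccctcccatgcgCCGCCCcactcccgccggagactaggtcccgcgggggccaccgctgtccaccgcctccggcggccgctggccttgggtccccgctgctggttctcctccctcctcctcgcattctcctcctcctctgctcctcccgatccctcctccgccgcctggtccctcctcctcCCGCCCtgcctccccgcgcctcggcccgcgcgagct
EGFR start 2, chr7:55109589-55109838, plus strand: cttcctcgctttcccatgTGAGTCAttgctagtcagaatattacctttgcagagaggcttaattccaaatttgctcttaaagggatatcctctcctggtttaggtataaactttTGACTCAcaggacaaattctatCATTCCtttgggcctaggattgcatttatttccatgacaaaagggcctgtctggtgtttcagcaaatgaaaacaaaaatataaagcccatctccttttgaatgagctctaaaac
IGF1R, chr15:98648289-98648538, plus strand: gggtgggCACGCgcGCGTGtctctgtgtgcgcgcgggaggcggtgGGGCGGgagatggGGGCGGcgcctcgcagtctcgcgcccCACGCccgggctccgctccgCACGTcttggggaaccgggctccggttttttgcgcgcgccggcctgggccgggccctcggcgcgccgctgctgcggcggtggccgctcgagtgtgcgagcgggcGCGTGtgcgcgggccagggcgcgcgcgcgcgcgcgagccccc
TGFA start 1, chr2:70553827-70554076, minus strand: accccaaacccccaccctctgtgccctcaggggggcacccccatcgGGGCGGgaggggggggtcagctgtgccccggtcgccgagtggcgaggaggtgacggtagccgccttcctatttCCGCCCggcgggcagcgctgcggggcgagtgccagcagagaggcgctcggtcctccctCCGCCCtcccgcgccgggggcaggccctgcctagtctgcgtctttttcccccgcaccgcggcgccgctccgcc
IGFBP3, chr7:45921273-45921522, minus strand: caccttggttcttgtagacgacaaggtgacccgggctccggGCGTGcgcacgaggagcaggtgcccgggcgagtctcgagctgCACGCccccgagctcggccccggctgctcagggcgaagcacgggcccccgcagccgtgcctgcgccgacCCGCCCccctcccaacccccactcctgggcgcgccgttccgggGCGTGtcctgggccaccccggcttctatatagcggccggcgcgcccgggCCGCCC

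The starts ranged from CpG-poor to very CpG-rich. The 250 bases before IGF1R held 48 CpG dinucleotides and those before IGFBP3 held 32, against a median of 16 over 22197 starts of protein-coding genes. The windows of TGFA start 1, EGFR start 1 and MET held 27, 25 and 24, AXL start 2 held 13, AXL start 1 held 4 and EGFR start 2 held 1. The letters ACGTG or GCGTG were found in 49.3% of all such windows. They occurred 5 times before IGF1R, 4 times before AXL start 2, 3 times before IGFBP3 and once before MET. They were not found in the windows of AXL start 1, EGFR start 1, EGFR start 2 or TGFA start 1. The window of TGFA start 2, which is not printed, held GCGTG once, 51 bases before that start. TGANTCA, held by 5.36% of windows, occurred only before EGFR start 2 among the 8 shown, and there in 2 copies. GGGCGG, held by 53.7% of windows, was present in the printed windows of AXL start 1, MET, EGFR start 1, TGFA start 1, IGFBP3 and IGF1R. GGAATG, held by 10.5% of windows, occurred in AXL start 2 and EGFR start 2. A match describes the letters and does not show that a factor is bound.

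The 6 loci held fewer peaks in the ACSS2i lists, and the size of that difference varied between genes. The loci together held 62 and 99 peaks in DMSO and 33 and 45 in ACSS2i, or 80.5 ± 26.2 against 39 ± 8.49 (SD, n = 2 per group), with a quotient of 0.484. Both ACSS2i counts lay below both DMSO counts, and a two-sided exact permutation test gave p = 0.333, which is the lowest possible with 2 libraries per group. Over whole lists the same ratio was 0.452, and the loci made up 0.179% and 0.197% of the DMSO peaks and 0.201% and 0.204% of the ACSS2i peaks. Nothing in the labels says that replicates were separate cultures, so the spread between libraries may be technical.

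Of the 103 regions, 57 were called in DMSO replicates 1 and 2 alike. Of these, 29 were called in all 4 libraries, 11 in 1 ACSS2i library and 17 in neither. The 17, called DMSO-only here, were 29.8% of the 57, while over all regions of both DMSO libraries 33.5% were DMSO-only. The share at the 6 loci was thus near the background. With DMSO replicate 2 as the only DMSO library, the count was 51 of 98 regions (55.9% over all regions). By position, 12 of 39 regions inside the gene spans were DMSO-only, 3 of 12 in the flanks, 2 of 5 at 5′ ends and 0 of 1 at a 3′ end. Over all regions, classed by the spans and ends of all genes and not of these 6 alone, the shares were 37.9% inside gene spans, 40.2% between spans and 20.7% near gene ends. Of the other 46 regions, 34 were called in DMSO replicate 2 alone, 5 in DMSO replicate 1 alone and 7 in DMSO replicate 2 with an ACSS2i library. ACSS2i replicates 1 and 2 called 33 and 43 of the 103 regions, and none of these lacked a DMSO peak. Over the whole data 5.97% of regions with an ACSS2i peak had no DMSO peak. Whether the member count differs from that share was not tested.

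**Figure D1:**
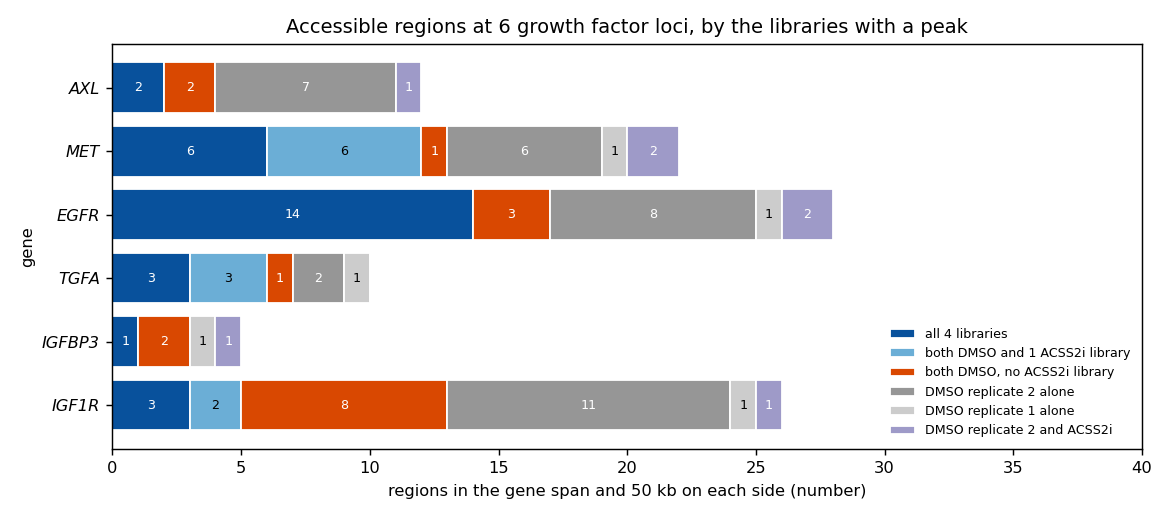
Number of regions (x axis) at each of the 6 loci (y axis, gene span and 50 kb on each side), coloured by the libraries that have a peak there. EGFR had 14 regions called in all 4 libraries, and IGF1R had 8 called in both DMSO libraries and in no ACSS2i library.

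Regions that were weak in DMSO made up most of the DMSO-only set. Strength was the percentile of −log10 q among all peaks of a library, and the lower of the DMSO percentiles was used. A peak at the same place from the top has a lower percentile in a shorter list, and the ACSS2i lists were shorter. Of 15 member regions at or under percentile 25, 11 were DMSO-only, and 76.7% of all such regions were. Of 22 member regions above percentile 75, 1 was DMSO-only and 20 were called in all 4 libraries, and over the whole data 0.844% of regions this strong were DMSO-only. The middle classes gave 4 of 10 (percentiles 25 to 50, 47.4% over all regions) and 1 of 10 (50 to 75, 14.6%).

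AXL encodes the receptor of the vitamin K-dependent ligand GAS6, and its span lies on chromosome 19, 41219223 to 41261766, on the plus strand. Inside the span, its highest-ranked region was not at the first annotated start but just before the second. That region, inside the span at 41225635 to 41226549 and 206 bp before start 2, had folds of 6.61 and 7.15 in DMSO, against 5.21 and 3.83 in ACSS2i, where fold is the enrichment of a summit over local background within its library. Its percentiles were 84.9 and 81.4 in DMSO, against 67.3 and 49.6 in ACSS2i, so both were lower in ACSS2i. Of all 13306 regions called in all 4 libraries, 58.1% had that order, and 16.9% did with lists of equal length. At the summit 49 and 85 fragments were piled up in DMSO and 23 and 28 in ACSS2i. The ACSS2i replicate 2 peak ended at 41226502, just short of the printed window of start 2. The peaks of DMSO replicates 1 and 2 and ACSS2i replicate 1 ended at 41226537, 41226549 and 41226547, inside the upstream edge of that window. No peak reached start 2 or the ACGTG and GCGTG letters printed before it.

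At AXL start 1 a peak was called in DMSO replicate 2 (fold 3.58, percentile 26.4) and in ACSS2i replicate 2 (fold 3.15, percentile 24.1) and in neither replicate 1. The CpG-poor start 1 was therefore called in 1 library of each group. Between the starts, the region at 41223464 to 41224077 was DMSO-only, with folds of 3.47 and 4.61 and percentiles of 32.6 and 59.1. The other DMSO-only region of the locus lay upstream, inside the span of the cytochrome P450 gene CYP2S1, at 41204388 to 41204752, with folds of 4.50 and 4.35. Past the 3′ end, a region at 41262290 to 41264702 had peaks in all 4 libraries with top folds of 6.10, 7.84, 5.45 and 4.01, and it covers the start of the neighbouring gene HNRNPUL1. This neighbour supplied the strongest AXL gene-end peak in both DMSO libraries, at percentiles 79.5 and 87.1. Of the 12 regions at AXL, 7 were called in DMSO replicate 2 alone, among them each of the 4 that lay farther downstream than HNRNPUL1's start. The DMSO-only count at AXL was 2 of 4, against 33.5% over all regions. Without DMSO replicate 1 it was 9 of 12 (55.9% over all regions at that setting).

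MET encodes the receptor of hepatocyte growth factor and is mutated in hereditary papillary kidney cancer. It lies on chromosome 7, 116672196 to 116798377, on the plus strand, and it had the strongest promoter peak of the 6 genes in DMSO. The peak over the start, which also lies in the span of the noncoding RNA gene COMETT, had folds of 7.50 and 12.8 in DMSO, against 5.10 and 6.14 in ACSS2i. Its percentiles were 95.3 and 99.9 in DMSO, against 71.1 and 88.1 in ACSS2i, with 68 and 211 fragments at the summit against 26 and 40. All 4 libraries thus had the peak, and both ACSS2i libraries gave it a lower percentile than either DMSO library did. Of all regions called in all 4 libraries, 58.1% had that order.

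The MET locus had 22 regions, 13 of them in both DMSO libraries, and 1 of the 13 (7.69%) was DMSO-only, against 33.5% over all regions. The MET count was 5 of 19 with 100 kb flanks and 0 of 10 with 25 kb flanks (33.5% over all regions for each). Without ACSS2i replicate 2 it was 6 of 13 (52.2% over all regions at that setting), and without DMSO replicate 1 it was 7 of 21 (55.9%). It was 2 of 14 without DMSO replicate 2 (39.0%), and leaving out ACSS2i replicate 1 gave 2 of 13 (39.0%). In density, 5.75 regions of both DMSO libraries per 100 kb put MET at percentile 92.6 of 20037 protein-coding gene loci drawn the same way, whose median was 1.83. The strongest region inside the gene lay 44.5 kb past the start, at 116716088 to 116717315, with folds of 9.87 and 15.3 in DMSO, against 7.90 and 9.11 in ACSS2i. Its percentiles were 99.0, 99.4, 94.4 and 98.3, so it stayed among the strongest peaks of every list. The strongest flanking region lay 41.3 kb upstream, also within COMETT, at 116630368 to 116631451, with folds of 6.14, 11.0, 5.30 and 5.90 and percentiles of 85.5, 95.9, 77.5 and 89.5, which overlapped between groups. A region 18.9 kb upstream (116652929 to 116653670) had folds of 7.04 and 12.8 in DMSO and 6.19 in ACSS2i replicate 2, with no peak in ACSS2i replicate 1. Of the 6 MET regions called in both DMSO libraries and a single ACSS2i library, 5 had their peak in ACSS2i replicate 2. The only DMSO-only region, at 116633110 to 116633606 in COMETT, was weak, with folds of 3.19 and 2.71.

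EGFR encodes the receptor of TGF-α and epidermal growth factor and lies on chromosome 7, 55019017 to 55211628, on the plus strand. Its locus had the most regions of the 6, 28, and 14 of the 17 present in both DMSO libraries were called in all 4. The open sites were strongest well inside the gene, and the promoter itself was weaker and less regular. A peak over start 1 was called in DMSO replicate 2 (fold 6.64, percentile 74.7), ACSS2i replicate 1 (3.71, percentile 27.1) and ACSS2i replicate 2 (2.83, percentile 11.3). In DMSO replicate 1 the peak of that region began at 55020079, over 1000 bp past the start, with a fold of 3.73 and percentile 30.2. The region as a whole (55018708 to 55020794) therefore counts as present in all 4 libraries, although 1 of them had no peak on the start.

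The strongest EGFR region, 167 kb into the gene at 55185514 to 55186923, also lies within the antisense gene EGFR-AS1. Its folds were 9.66 and 10.6 in DMSO, against 8.34 and 7.36 in ACSS2i, and its percentiles were 99.8, 99.8, 99.5 and 99.4. Next to it in strength was a region 114 kb into the gene (55132650 to 55134114), with percentiles of 99.4, 98.2, 98.4 and 98.9 and folds of 6.79, 7.02, 6.64 and 6.12. Here the summit pileups were 114 and 196 fragments in DMSO and 58 and 82 in ACSS2i, while the ranks overlapped between the groups. Further regions 46.6, 54.8 and 67.6 kb into the gene had percentiles above 84 in every library. The strongest flanking region, 227 kb from the start and past the 3′ end, at 55245195 to 55246011 in the long noncoding RNA gene ELDR, had folds of 9.03, 12.5, 5.60 and 6.99 and percentiles of 97.0, 97.7, 78.7 and 94.1.

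Other EGFR regions had much lower percentiles in the shorter ACSS2i lists, and 3 of 17 were DMSO-only, against 33.5% over all regions. Without DMSO replicate 1 it was 11 of 27 (55.9% at that setting), and without DMSO replicate 2 it was 5 of 18 (39.0%). The region 126 kb into the gene (55144449 to 55145263) had folds of 7.68 and 12.1 in DMSO, against 3.32 and 4.94 in ACSS2i, the widest ratio of group means, 2.40, among the 29 regions of all 4 libraries. Its percentiles were 85.9 and 93.5 in DMSO, against 11.3 and 72.9 in ACSS2i, so the ACSS2i libraries differed widely. The region 33.8 kb into the gene (55052227 to 55053469) had percentiles of 70.9 and 64.9 in DMSO, against 11.9 and 19.0 in ACSS2i. With lists of equal length, however, it was kept in DMSO replicate 1 and ACSS2i replicate 1 and in neither replicate 2. The DMSO-only region at 55177094 to 55177482 stood out for its strength. It had folds of 6.97 and 9.83, percentiles of 77.4 and 81.7 and summit pileups of 37 and 66 fragments in DMSO. It was singled out after its values were seen, as the only DMSO-only member region above percentile 75 in both DMSO libraries. The DMSO-only region over start 2 (55109038 to 55109873), which holds both AP-1 letters printed above, was weaker, with folds of 3.54 and 4.66. Its DMSO peaks met only at their edges, since that of replicate 1 ended at 55109628 and that of replicate 2 began at 55109531. The replicate 1 peak thus stopped short of start 2 at 55109839 and held only the first of the AP-1 matches. The remaining DMSO-only region, about 3 kb into the gene at 55021963 to 55022177, had folds of 3.54 and 2.98.

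IGF1R encodes the receptor of insulin-like growth factors and lies on chromosome 15, 98648539 to 98964530, on the plus strand. It had the most DMSO-only regions, 8 of the 13 present in both DMSO libraries (61.5%), against 33.5% over all regions. Among the 5514 protein-coding loci with 5 or more regions in both DMSO libraries, whose median share was 28.6%, this lay at percentile 95.0. The 8 regions were weak to middling in DMSO, with a lower percentile between 5.56 and 44.4. Of all regions at or under percentile 25, 76.7% were DMSO-only, as given above. The IGF1R count was 9 of 14 without DMSO replicate 2 (39.0% over all regions at that setting) and 19 of 25 without DMSO replicate 1 (55.9%). Leaving out either ACSS2i library gave 9 of 13 (39.0% for replicate 1, 52.2% for replicate 2). With peaks of −log10 q of at least 5 it was 3 of 6 (40.9%), the same share as at AXL, TGFA and IGFBP3, and with lists of equal length it was 0 of 2 (6.41%).

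The very CpG-rich IGF1R promoter was among the DMSO-only regions. The region at 98647164 to 98649366 had folds of 3.68 and 5.83 and percentiles of 20.3 and 56.7 in DMSO and no peak in ACSS2i. The DMSO replicate 1 peak ended 154 bp before the start, while that of replicate 2 covered it. Both this region and the next DMSO-only region, at 98649721 to 98650781 with folds of 3.83 and 3.36, also lie in the span of the noncoding RNA gene IRAIN, so the promoter peak cannot be assigned to IGF1R alone. The strongest DMSO-only region of the locus by its lower rank, 217 kb into the gene at 98865417 to 98866544, had folds of 5.52 and 8.13.

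Regions of IGF1R called in all 4 libraries lay deep in the gene. The strongest by the lower DMSO percentile, 249 kb from the start at 98896476 to 98897719, had folds of 7.21 and 13.3 in DMSO, against 5.19 and 4.58 in ACSS2i, with percentiles of 76.7, 91.4, 60.5 and 50.7. By contrast, the region 79.3 kb into the gene (98727371 to 98728264) had folds of 6.02 and 8.61 in DMSO, against 5.54 and 6.81 in ACSS2i. Its percentiles were 69.7 and 81.9 in DMSO, against 69.0 and 94.0 in ACSS2i, so the highest rank was in ACSS2i replicate 2 and the groups overlapped. No flanking region was shared by the DMSO libraries, and the only flanking peak was one of DMSO replicate 2 upstream (98609709 to 98610028, fold 6.59).

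TGFA encodes TGF-α, a membrane-anchored ligand of EGFR, and lies on chromosome 2, 70447284 to 70553826, on the minus strand. Its 3 regions called in all 4 libraries ranked high in both groups. The peak over both listed starts (70553334 to 70554397) had folds of 6.17 and 8.92 in DMSO, against 7.85 and 5.65 in ACSS2i. Its percentiles were 85.2 and 96.1 in DMSO, against 97.1 and 88.3 in ACSS2i. Both folds and ranks of the groups overlapped. The summit pileups were 53 and 134 fragments in DMSO and 42 and 44 in ACSS2i, or 25.8 and 76.7 times the genome background against 18.1 and 13.9 times.

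The TGFA region that ranked highest in all libraries but ACSS2i replicate 1 lay 42.9 kb upstream, between gene spans, at 70596280 to 70597269. Its folds were 10.3 and 14.3 in DMSO, against 9.56 and 12.0 in ACSS2i, and its percentiles were 99.3, 99.3, 98.1 and 99.8. The strongest region inside the gene, 29.0 kb from the start at 70524152 to 70525414, had folds of 7.66 and 8.98 in DMSO, against 8.68 and 7.63 in ACSS2i. Its percentiles, 97.2 and 97.3 in DMSO, against 98.9 and 98.3 in ACSS2i, made it the only one of the 29 regions in which both ACSS2i ranks exceeded both DMSO ranks. Over all regions of the 4 libraries 1.59% had that order. The single DMSO-only region of the locus, at 70471228 to 70471564 inside the noncoding gene TGFA-IT1, had folds of 6.22 and 9.74 and percentiles of 53.6 and 68.8. The TGFA count was 1 of 7, against 33.5% over all regions. It was 3 of 9 without DMSO replicate 1 (55.9% over all regions at that setting) and 2 of 8 without DMSO replicate 2 (39.0%). Leaving out ACSS2i replicate 1 gave 2 of 7 (39.0%), and leaving out ACSS2i replicate 2 gave 3 of 7 (52.2%). It was 3 of 6 with −log10 q of at least 5 (40.9%).

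IGFBP3 encodes the main carrier of insulin-like growth factors in blood and lies on chromosome 7, 45912245 to 45921272, on the minus strand. Its promoter was DMSO-only, while a site just upstream was called in all 4 libraries. The promoter region (45920701 to 45921455) had folds of 4.27 and 4.90, percentiles of 47.5 and 53.9 and summit pileups of 31 and 52 fragments in DMSO, and no ACSS2i peak. The upstream site, 3.05 kb from the start at 45923884 to 45924768, had folds of 4.59 and 6.44 in DMSO, against 4.31 and 4.20 in ACSS2i, with percentiles of 45.9, 64.2, 40.5 and 44.8. Both sites were thus of middling rank in DMSO. Downstream, a region at 45885205 to 45885803 was DMSO-only, with folds of 3.65 and 4.55. Inside the gene a region at 45917842 to 45919242 was called in DMSO replicate 2 (fold 3.34) and ACSS2i replicate 1 (fold 2.98), and no region inside the span was shared by the DMSO libraries.

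**Figure D2:**
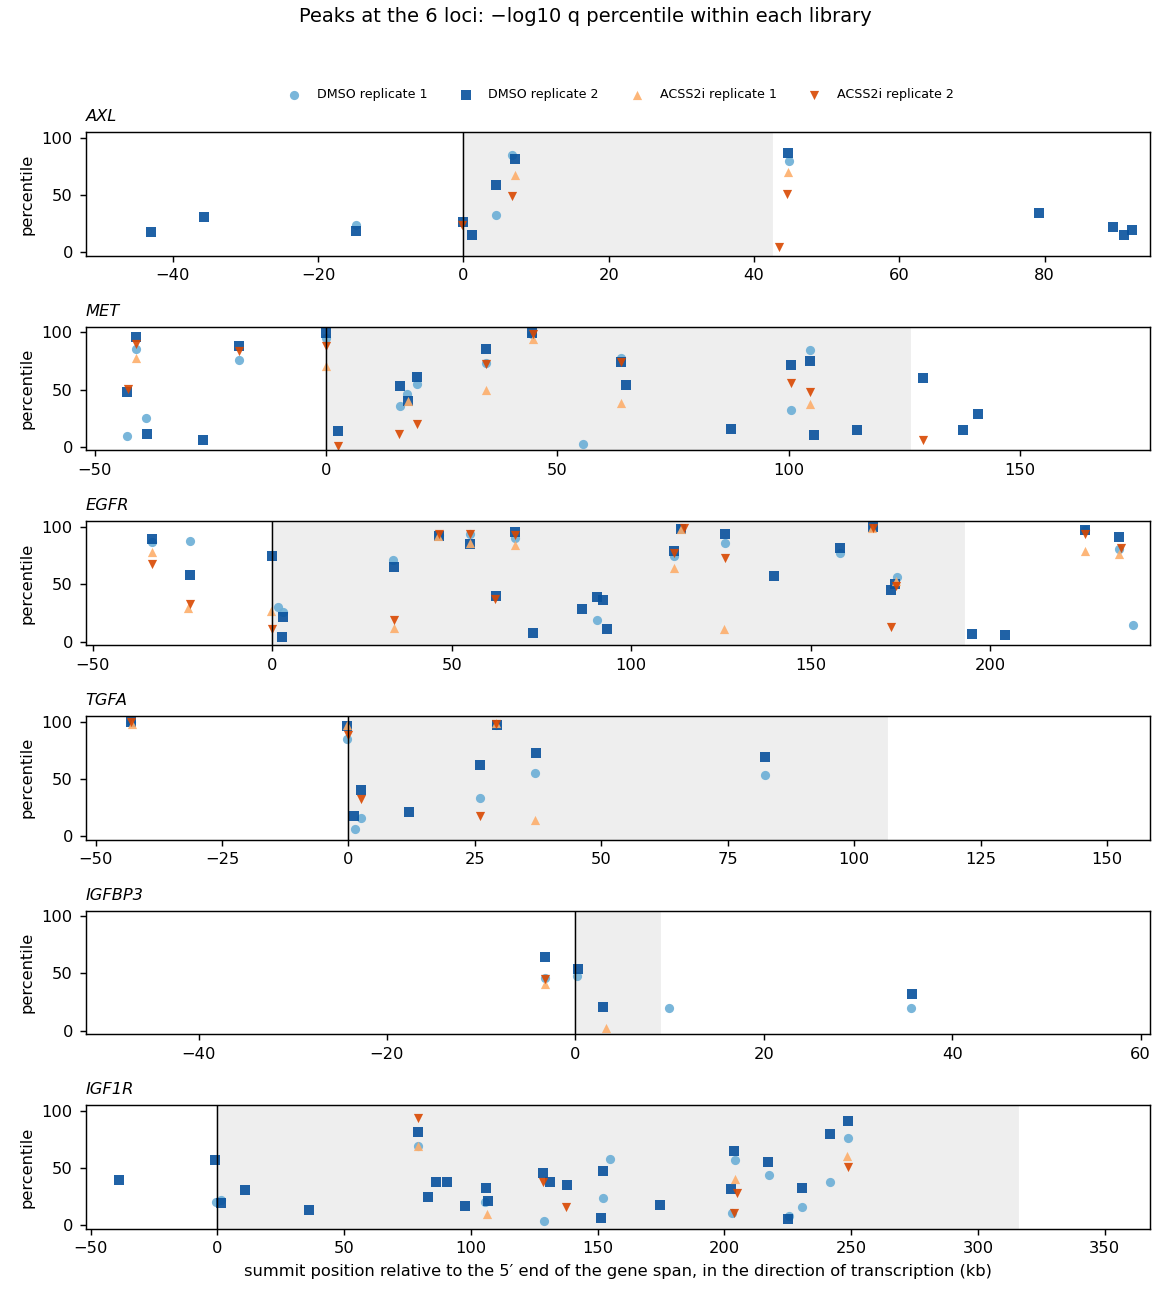
Position of the strongest summit of each peak relative to the 5′ end of the gene span, in kb (x axis, grey band: span). The y axis gives its percentile of −log10 q within its library, for each locus and library. At EGFR the top site of all 4 libraries lies above percentile 99, at TGFA 2 sites lie above percentile 97 in each library, while most IGF1R summits lie below percentile 60.

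Peaks over the annotated starts differed between the 6 genes. Of 9 listed start windows (250 bases before to 50 after a start), 7 were covered by a peak in both DMSO libraries, 3 of these 7 in no ACSS2i library and 3 in all 4. The start windows of IGFBP3, of IGF1R and of EGFR start 2 were DMSO-only, and over 10329 start windows of coding genes covered in both DMSO libraries 21% were. A window counted as covered if a peak overlapped it by 1 bp or more. At IGF1R and EGFR start 2 the DMSO replicate 1 peak ended before the start itself, and only that of DMSO replicate 2 covered the start. The windows of MET and both TGFA starts were covered in all 4, and that of AXL start 2 in all but ACSS2i replicate 2. The AXL peaks overlapped only the upstream edge of that window, and none reached start 2. By the wider rule of a peak within 1000 bp of either gene end, 5 of the 6 genes had one in both DMSO libraries, and IGFBP3 and IGF1R had none in ACSS2i, against 18.9% of 10471 genes. Among these 5, AXL, MET, IGFBP3 and IGF1R each had a lower gene-end percentile in both ACSS2i libraries than in both DMSO libraries, with no peak counted as 0, and 72% of all such genes did. The AXL value rests on the HNRNPUL1 peak past its 3′ end, whose stronger counterpart in each ACSS2i library began outside the 1000 bp window, and EGFR is outside the 5 because DMSO replicate 1 had no peak in the window.

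**Figure D3:**
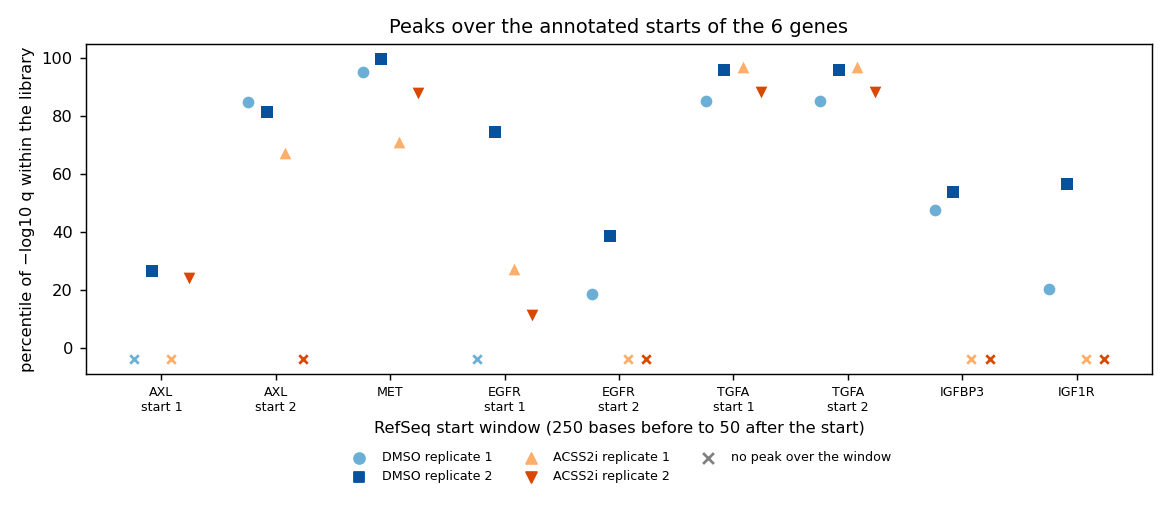
Percentile of −log10 q within each library (y axis) of the strongest peak over each RefSeq start window (x axis), with crosses for libraries that had no peak there. The MET and TGFA start windows had a peak in every library, and those of IGFBP3 and IGF1R in the DMSO libraries alone.

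In the 29 regions called in all 4 libraries the folds were mostly lower in ACSS2i, and the ranks of 11 overlapped between the groups. Both ACSS2i folds lay below both DMSO folds in 25 of 29 regions, and 82.2% of all 13306 such regions had that order. The 4 exceptions were the 3 TGFA regions and the IGF1R region 79.3 kb into the gene. For ranks, both ACSS2i percentiles lay below both DMSO percentiles in 17 of 29, 1 had the opposite order and 11 overlapped, and the share over all regions was 58.1%. Without ACSS2i replicate 2 the count was 26 of 32 (78.6% over all regions at that setting), and without ACSS2i replicate 1 it was 21 of 37 (68.3%). The ratio of DMSO to ACSS2i mean fold had a median of 1.50, with a range from 1.02 at the TGFA region inside the gene to 2.40, and its median over all regions was 1.64. The mean percentile in ACSS2i minus that in DMSO had a median of -11.0 in the 29 regions and -17.4 over all. The median summit pileup of the 29 regions was 23.8 and 53.2 times the genome background in DMSO and 11.2 and 12.3 times in ACSS2i, and over all 13306 regions it was 19.2 and 44.1 against 8.64 and 9.17. In this median, DMSO replicate 1 lay closer to both ACSS2i libraries than to DMSO replicate 2.

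**Figure D4:**
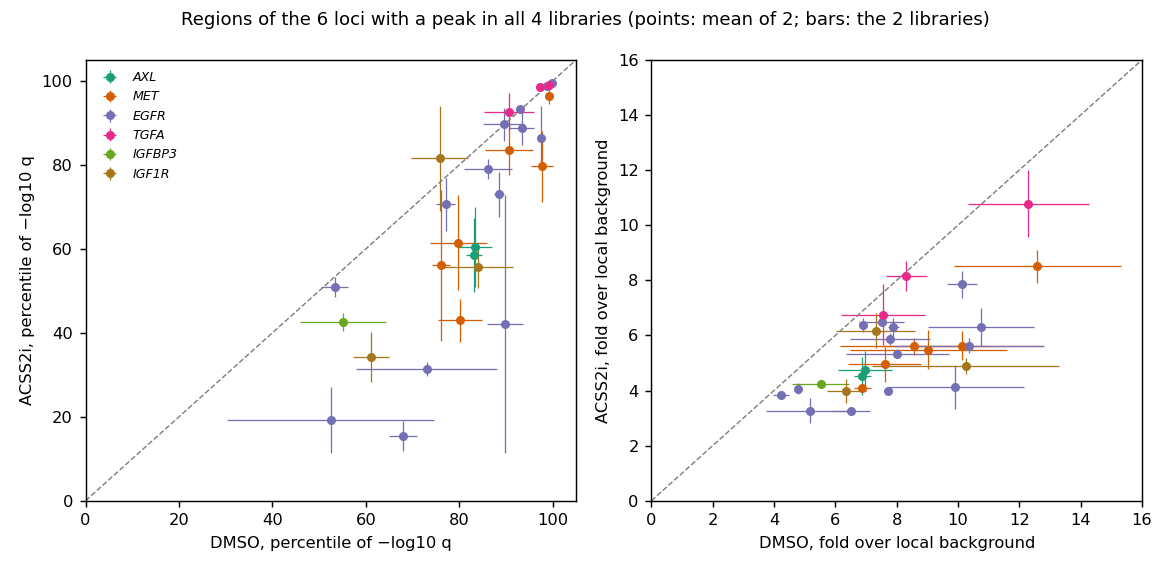
Mean of the DMSO libraries (x axis) against mean of the ACSS2i libraries (y axis) for the 29 regions called in all 4 libraries, as percentile of −log10 q (left) and as fold over local background (right), with bars that span the 2 libraries of a group and a dashed line of equality. The 3 TGFA regions lie near the line in the left panel. The EGFR region 126 kb into the gene has mean percentiles of 89.7 in DMSO and 42.1 in ACSS2i, the latter from 11.3 and 72.9.

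With only the 16400 strongest peaks of every list, the length of the shortest one, the 6 loci no longer held fewer ACSS2i peaks. The ratio of ACSS2i to DMSO peaks was then 1.05, and 33 and 30 regions were called in DMSO and 33 and 33 in ACSS2i. Of 27 regions then present in both DMSO libraries, 23 were in both ACSS2i libraries and 2 in neither, or 7.41%, with 6.41% over all regions. The 2 were the EGFR region at 55177094 to 55177482 and the TGFA region at 70471228 to 70471564, both DMSO-only in the full lists as well. The IGF1R and IGFBP3 promoters were not among the strongest peaks of both DMSO libraries at this length, so neither could be DMSO-only. The upstream IGFBP3 site was the only member region found in both ACSS2i libraries and no DMSO library at this length, although it was called in all 4 full lists. Reducing the lists also removes any general difference in peak number.

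Genes with the most similar gene-end percentiles over the 4 libraries were named for each member, likeness being the sum of absolute differences with no peak as 0. For MET these were PIGU, UBXN4 and ZNF695, with sums of 3.18, 3.80 and 4.17 percentile points. For TGFA they were DRC10 and TPCN1, both at 4.44, and FKBP9 at 6.90. IGFBP3 was nearest to ANKLE1, ETV2 and CDHR5 (1.14, 1.26 and 1.37), and IGF1R to C19orf12, TMEM35B and RNASEH2B (0.713, 0.787 and 1.03). AXL, through the peak past its 3′ end, was nearest to DIMT1, ERCC6 and USP49 (2.38, 4.82 and 6.57). EGFR had no close match, since its nearest genes, CPSF6, HBS1L and IL4R, lay 16.9, 17.8 and 18.1 away.

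Other genes of receptor tyrosine kinase signalling gave a frame for the 6. Of 95 such genes, 66 were marked at a gene end in both DMSO libraries, of which 33 had one in all 4 libraries, 18 in 1 ACSS2i library and 15 (22.7%) in neither, against 18.9% of all genes. None of the 95 had a gene-end peak in ACSS2i without one in DMSO. Without ACSS2i replicate 2 the count was 31 of 66, and it was 23 of 74 without DMSO replicate 1 (38.1% and 28.5% of all genes). Of 24 receptors, 13 were present in both DMSO libraries and 4 were DMSO-only: ERBB2, the partner receptor of the EGFR family (folds of 6.86 and 8.29), TYRO3, a relative of AXL (7.19 and 6.57), FGFR2, a fibroblast growth factor receptor (3.43 and 9.86), and PDGFRB, a platelet-derived growth factor receptor (4.75 and 5.33). Gene-end peaks can belong to a neighbouring gene, here as elsewhere.

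Among 22 ligands and binding proteins, 10 were present in both DMSO libraries and 3 of these, all EGFR ligand genes, were DMSO-only, against 18.9% of all genes. These were AREG (percentiles of 31.2 and 51.5), HBEGF (8.01 and 66.0) and BTC (6.81 and 44.7), which encode amphiregulin, heparin-binding EGF-like growth factor and betacellulin. EREG, the gene of the EGFR ligand epiregulin, was called in all 4 libraries, with folds of 7.87, 7.51, 4.52 and 4.56, and EGF in DMSO replicate 2 alone. The ligand genes HGF, IGF1 and IGF2 were without a gene-end peak in all 4 libraries. Of 6 genes for ligand processing 3 were present in both DMSO libraries and none was DMSO-only. ADAM17, the protease that releases TGF-α from the membrane, had folds of 9.21 and 9.89 in DMSO, against 5.65 and 7.04 in ACSS2i, and its relative ADAM10 had 8.74, 10.2, 5.84 and 6.57.

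Of 27 genes for adaptors and kinases, 24 were present in both DMSO libraries and 5 (20.8%) were DMSO-only, near the 18.9% of all genes. The 4 strongest by the lower DMSO percentile were IRS1, an adaptor of IGF1R (folds of 5.36 and 6.62), the GTPase gene NRAS (4.62 and 9.72), the adaptor gene GAB2 (4.16 and 6.37) and the kinase gene SRC (3.33 and 3.41). All 16 inhibitor genes were present in both DMSO libraries, 11 of them in all 4, and 3 (18.75%) were DMSO-only, again near the share of all genes. These were CBL, a ubiquitin ligase that marks activated receptors for degradation (5.02 and 7.69), SPRY1 (5.12 and 7.46) and SPRED2 (2.99 and 5.12), which restrain the signal below the receptors.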

How the data were processed

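Peak lists of 4 ATAC-seq libraries of 786-O cells, 2 of vehicle and 2 of ACSS2i cells, were grouped by their titles. The tools listed in the submitters' processing notes, with no role stated, include MACS2 2.1.2, Bowtie2, Trimmomatic 0.38, bcl2fastq 2.17, Picard 2.18.26, SAMtools 1.9, bedtools, DiffBind and deepTools 3.5.0, and the build listed is hg38. For caller options, a Tn5 shift or the list filter: not given in the sources used here. One list was deposited per library. Fold, as deposited, is a ratio of a summit to its local background in one library. The authors also deposited each summit's −log10 p-value and −log10 q-value, the latter at least 2 throughout, and a score that played no part here. All of these are the authors' own values, used only for description and for ranks inside a list.

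Summits of 1 interval were counted as 1 peak with the values of its strongest summit. Peaks overlapping by 1 bp or more were joined into regions. Spans came from RefSeq GRCh38.p14, whose promoter table gave strand and starts for all 6 genes; exon positions were not used, so regions inside a span are not split into exons and introns. Whole-number pileups and Poisson backgrounds were solved from the fold and −log10 p, and matched within 0.001 for at least 99.99% of summits per library. Read depth: not given in the sources used here; these pileups give the depth behind each peak. The only test across libraries was a two-sided exact permutation test of peak numbers. The steps were tested on simulated data, with Python 3.11.15, pandas 2.3.3, numpy 2.4.6, scipy 1.17.1 and matplotlib 3.10.9. Regions named by rule are gene-end regions and the strongest region by the lower DMSO percentile inside each span and in its flanks (none was called in ACSS2i alone). Every other region named, DMSO-only ones included, was chosen after its values were seen. Up to 4 DMSO-only genes per role of the pathway list were named, or else the 2 strongest, and 3 genes most like each member. The members and lists were chosen with earlier results of these data known. Alternatives covered windows, flanks, thresholds, list length, joining of peaks, summits, single libraries, pairing and, chosen after seeing the data, RefSeq start windows.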

Additional observations from a re-analysis of the deposited data

How the results depend on the processing

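The lower peak counts of ACSS2i kept their direction under 25 and 100 kb flanks, the stricter −log10 q of 5, summits in place of intervals and the removal of single libraries, which gave ratios from 0.394 to 0.629. Equal list lengths turned it, at a ratio of 1.05 (exact permutation p = 1). The 17 DMSO-only member regions, 29.8% against 33.5% over all regions, became 27 of 76 with 100 kb flanks (35.5% against 33.5%). They were 2 of 27 at equal lengths (6.41% over all regions). Without single libraries they ranged from 20 of 57 without ACSS2i replicate 1 (39.0%) to 51 of 98 without DMSO replicate 1 (55.9%). The count of regions with lower ACSS2i ranks, 17 of 29, was 4 of 23 at equal lengths (16.9% over all regions). Without single libraries it went from 19 of 28 without DMSO replicate 2 (63.8%) to 26 of 32 without ACSS2i replicate 2 (78.6%). Of the 2 DMSO-only members, IGFBP3 stayed so in all settings but equal lengths. There the only one was AXL (1 of 3, against 5.29% of all genes). This rests on the HNRNPUL1 start region, which was kept in all 4 libraries at this length. Its ACSS2i peaks began outside the 1000 bp window of the AXL end. IGF1R stayed DMSO-only in all but equal lengths and the stricter −log10 q. At the stricter setting AXL, again through the HNRNPUL1 region, and IGFBP3 were the 2 (of 4, against 29.8%). The 15 of 66 DMSO-only pathway genes became 23 of 60 at the stricter −log10 q (29.8% of all genes at that setting), 1 of 33 at equal lengths (5.29%), 17 of 47 with RefSeq start windows (20.02%) and 15 to 31 without single libraries (19.4% to 38.1%). The 4 of 5 members with lower gene-end ranks (72% of all genes) became 2 of 3 at equal lengths (27.1%). The gene-end percentile difference, ACSS2i minus DMSO with no peak counted as 0, was -18.1 for EGFR. It changed sign at equal lengths (2.40) and ranged from -55.5 to 19.2 without single libraries. The 19.2 came without DMSO replicate 2, where DMSO replicate 1 had no peak in the window and counted as 0. For TGFA the difference was 2.05. It ranged from -3.38 without DMSO replicate 1 and -2.36 without ACSS2i replicate 1 to 7.48 without DMSO replicate 2, and was 12.4 at equal lengths. The AXL difference, -71.2, was -1.11 with a 500 bp window, which leaves out the HNRNPUL1 peak. Why the other values changed was not tested, except that equal lengths test fewer peaks. With a replicate block, libraries of the same number paired, the ratio was still 0.484 and the exact permutation p of the peak counts was 0.5, the smallest that 2 pairs allow. The numbers were not shown to pair the libraries, since differences between replicates 1 and 2 correlated at 0.0933 between groups over 13306 regions. Peaks near a −log10 q of 2 lie at the limit of the deposited lists, so an absent peak was one not listed and need not mean closed DNA. Whether depth, background or the list filter left it out was not tested.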
